A study of Mus musculus with 9 samples.

Results

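The Myc, Max and Mxd network of basic helix-loop-helix leucine zipper transcription factors was followed through β-catenin-driven thymic tumours of the mouse. Its 10 genes were taken by name: Myc, Mycn, Mycl, Max, Mxd1, Mxd3, Mxd4, Mxi1, Mnt and Mlx, out of 18193 genes that had a probe set of their own on the array. They had 24 probe sets (groups of oligonucleotides against one transcript). Of the 10 genes, 9 passed a filter on low signal and were tested among 11644 genes, and Mycl did not. They were taken by name and not by a cut on measured values, but earlier results of these data were known when they were chosen.

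Thymocyte RNA of 9 C57Bl/6 mice was measured, with 1 array per mouse. The tumour group held thymic tumours of 4 R26NC/NC CD4Cre+ mice aged 28, 26, 23 and 21 weeks (tumours 1 to 4), taken unsorted, with at least 95% of cells CD4+CD8+ (double-positive, DP). The pre-transformed group held DP thymocytes of 3 R26NC/NC CD4Cre+ mice aged 6 weeks with thymi of normal size, sorted to over 98% purity. The control group held DP thymocytes, sorted alike, of 2 R26NC/NC CD4Cre- mice aged 6 weeks. All 9 mice thus carried the R26 allele, which encodes activated β-catenin, and Cre driven by Cd4, which switches it on from the DP stage, was absent from the controls only. Tumour RNA was labelled from 2.5 µg by the standard protocol and sorted-cell RNA from 0.1 µg by an amplification kit. Labelling, sorting and age therefore cannot be told apart from tumour formation.

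Max is the shared partner of the family. Myc, N-Myc and L-Myc bind the E-box CACGTG as dimers with Max and raise transcription, whereas Mxd1, Mxi1, Mxd3, Mxd4 and Mnt dimerise with Max and recruit Sin3 and histone deacetylases to the same sites. Mlx is a second hub, which pairs with Mlxip, Mlxipl, Mxd1, Mxd4 and Mnt. In developing thymocytes Myc is known for its part in growth and division up to the DP stage, and Myc is a widely described target of β-catenin with TCF factors.

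Tumour arrays stood apart from the rest, with rank correlations across tested genes, which are not independent, of 0.793 to 0.863 with sorted arrays, against 0.979 to 0.991 among sorted arrays. Of 12 DP marker genes on the array, 11 were above dim signal in tumours and all 12 in both sorted groups. Their summed signal was 11160 to 15730 on tumour arrays, 30695 to 32249 on pre-transformed arrays and 29571 to 31381 on control arrays. In tumours 11 of the 12 were called lower by limma than in pre-transformed cells (31% of all tested genes), but by unequal amounts. Cd8a was 1.53-fold lower and Rag2 8.06-fold lower. Cd4 was not lower, at 1007.9 to 1725.0 in tumours, 832.1 to 1109.8 in pre-transformed cells and 706.6 and 738.3 in controls. The 12 myeloid markers summed to 3496, 178.3, 3724 and 3327 in tumours 1 to 4, against 176 to 315.7 in pre-transformed cells and 158.8 to 203.4 in controls. The 6 B cell markers summed to 497, 21.9, 412.7 and 644.1 in tumours 1 to 4, against 238.2 to 256.6 in pre-transformed cells and 264.3 to 291.0 in controls. They did not go one way. Cd79b made up most of the sum on sorted arrays (195.8 to 253.9) and read 80.7, 1.3, 73.6 and 108.5 in tumours 1 to 4. Cd79a, Ms4a1 and Blnk were instead higher in tumours 1, 3 and 4 than on any sorted array. Ms4a1 read 197.9, 5.0, 138.9 and 269.7 in tumours and 1.5 to 8.9 on sorted arrays. Tumour 2 thus had the least summed signal of both marker sets among the tumours. The myeloid marker Itgam went the other way, at 31.4, 113.2, 57.7 and 23.4 in tumours 1 to 4. The β-actin 3′ to 5′ log2 ratio, higher where RNA is shortened, was 0.62, 0.54, 0.92 and 1.14 in tumours 1 to 4 and 0.20 to 0.35 on sorted arrays. The same ratio for Gapdh was -0.53, -0.40, -0.10 and -0.22 in tumours 1 to 4 and -0.34 to -0.01 on sorted arrays. It was thus not higher in tumours. In bulk RNA, fewer cells of a type and less RNA per cell cannot be told apart.

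Myc was the only network gene called higher in tumours on the probe set that stood for it. Its probe set (1424942_a_at) read 1205.7, 1486.1, 1722.5 and 1192.2 in tumours, 116.2, 53.3 and 67.8 in pre-transformed cells and 88.0 and 59.4 in controls. All 4 tumours lay far above every sorted array, and they differed from each other by only 1.44-fold. The log2 change was 4.21 ± 0.27 (SE) against pre-transformed cells, 18.5-fold (limma adjusted p = 7.56e-06), and 4.26 ± 0.31 against controls, 19.2-fold (adjusted p = 2.89e-05). Tumour 2, with the lowest summed myeloid and B cell signal, had the second highest Myc, and the part of such cells in the Myc signal was not tested. Myc signals of pre-transformed and control cells overlapped, with a log2 difference of 0.05 ± 0.33 (adjusted p = 0.957).

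The spread of Myc over the 4 tumours (SD 0.26 on the log2 scale) was larger than that of 23.0% of tested genes. By the same measure Mxd4 (SD 0.94) exceeded 83.1% of genes, Max (SD 1.46) 92.0% and Mycn (SD 1.70) 94.5%. Genes of low signal were among those compared, and Mycn was one of them. On this scale Myc was even across tumours, while its partner Max was among the genes that differed most from tumour to tumour.

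Both paralogs of Myc had low signals in every group. A group was called dim where its mean log2 signal fell under the mean 65th percentile of its arrays, a signal of 35.9 for tumours, 43.7 for pre-transformed cells and 40.8 for controls. Mycn, which encodes N-Myc, read 0.7, 2.0, 11.9 and 2.0 in tumours, 18.2, 12.2 and 11.1 in pre-transformed cells and 28.4 and 31.5 in controls on its brightest probe set, dim in every group. The fit called it lower in tumours against pre-transformed cells (log2 change -2.49, adjusted p = 0.0282) and against controls (-3.64, adjusted p = 0.0113), but no fold is given between dim signals. Tumour 3 lay within the range of pre-transformed cells. Over alternatives of the processing the first call was made in 9 of 17 and the second in 13 of 16. The first was lost without tumour 1 or 4 (adjusted p = 0.0505 and 0.0522). It was also lost without pre-transformed 1, 2 or 3 (0.0964, 0.0670 and 0.0615). Its other probe sets were also dim in every group. Mycl, which encodes L-Myc, was dim on all 3 of its probe sets. The highest of them read 9.3, 13.1, 11.0 and 10.6 in tumours, 0.7, 0.8 and 2.6 in pre-transformed cells and 1.3 and 3.9 in controls. Probe sets for bacterial transcripts, which mark background, reached 9.2, 7.8, 10.8 and 13.9 on the tumour arrays, 2.4 to 5.0 on pre-transformed arrays and 3.2 to 4.5 on controls. Mycl in tumours was thus near the highest of these background signals.

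**Figure D1:**
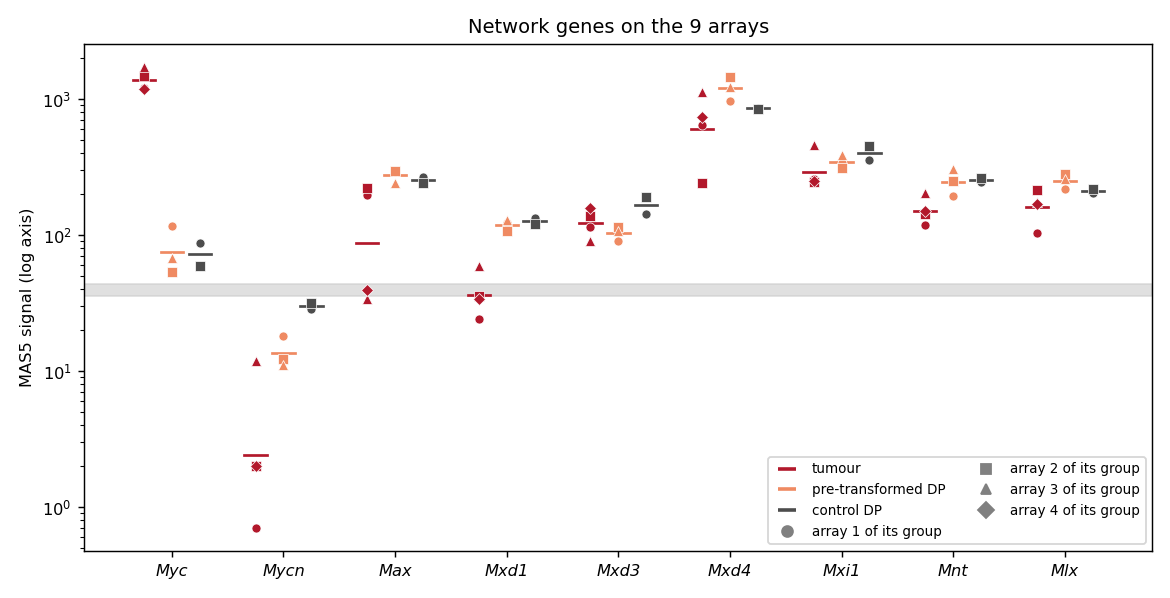
MAS5 signal (log axis) of the 9 tested network genes on each array, with tumours at the left of each gene, pre-transformed cells in the middle and controls at the right; short bars are geometric means and the grey band spans the dim limits of the groups (35.9 to 43.7). Myc is higher in all 4 tumours than on any sorted array, Mxd1 is lower in all 4, and Max splits the tumours into a pair near 200 and a pair under 40.

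Of the 9 tested genes, 6 were called in tumours against pre-transformed cells, where 54.9% of all tested genes were called. Myc was called higher (23.9% of all genes), and Mycn, Max, Mxd1, Mnt and Mlx were called lower (31% of all genes). The median log2 change of the 9 was -0.69, against -0.12 for all tested genes. Against controls, 4 of 9 were called (45.7% of all genes), with Myc higher (20.5%) and Mycn, Mxd1 and Mnt lower (25.2%). The share called was thus near that of all genes in both comparisons. The tumour comparisons share the tumour arrays, so their calls are not independent. Between pre-transformed and control cells none of the 9 was called by limma (1.63% of all genes were, 1.11% higher and 0.524% lower), and at an unadjusted p under 0.05, 1 was higher and 2 were lower. The share of all genes at that unadjusted threshold was not counted, here or for the lists below.

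Max, the obligate partner of Myc and of the Mxd proteins, had a single probe set (1423501_at). It read 195.7, 223.2, 33.9 and 39.3 in tumours, 292.8, 297.0 and 243.3 in pre-transformed cells and 266.4 and 240.2 in controls. All 4 tumours were below all sorted arrays, but tumours 1 and 2 by little and tumours 3 and 4 by several-fold, with signals near the dim limit. The log2 change was -1.66 ± 0.63 against pre-transformed cells (adjusted p = 0.0454) and -1.53 against controls (adjusted p = 0.102). The call was lost without tumour 3 (-1.21, adjusted p = 0.100) or tumour 4 (-1.28, adjusted p = 0.107), and without pre-transformed 1, 2 or 3 (adjusted p = 0.110, 0.112 and 0.0860). Tumours 3 and 4 were also those with the highest β-actin 3′ to 5′ ratios, and came from the youngest tumour-bearing mice; the part of either in the Max signal was not tested. Their Myc signals, 1722.5 and 1192.2, were the highest and the lowest of the 4. Between pre-transformed and control cells Max differed by 0.13 (adjusted p = 0.661).

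Over all 9 arrays, each gene centred on its own mean log2 signal, the pattern of Max was most like those of Tmem50b, Mettl7a1, Bace1, Atp10d and Msrb2 among 8838 genes above dim signal, a comparison chosen after the values of Max were seen. Their mean absolute differences from Max were 0.33, 0.35, 0.42, 0.43 and 0.43 on the log2 scale. Tmem50b, the closest, read 36.5, 117.5, 29.8 and 23.7 in tumours, 156.3, 181.4 and 133.5 on the arrays of pre-transformed cells and 139.9 and 140.5 in controls. Unlike Max, it was low in tumour 1 as well.

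Among the partners that oppose Myc, Mxd1 had the smallest p. On 1434830_at it read 24.3, 35.8, 59.4 and 33.9 in tumours, 122.0, 107.4 and 129.2 in pre-transformed cells and 133.3 and 120.0 in controls, with no overlap between tumours and sorted arrays. Such separation held for 57% of all tested genes against pre-transformed cells and for 60.5% against controls. Mxd1 was 3.28-fold lower than in pre-transformed cells (log2 change -1.71 ± 0.29, adjusted p = 0.000728) and 3.48-fold lower than in controls (-1.80, adjusted p = 0.0018). The tumour mean of 36.4 was close to the dim limit of 35.9, and tumours 1, 2 and 4 were under that limit. Over the alternatives the change against pre-transformed cells ranged from -1.97 to -1.10. It did not differ detectably between pre-transformed cells and controls (-0.09, adjusted p = 0.809). Its second kept probe set was dim throughout, at 21.4 to 35.6 in tumours, 40.6 to 43.7 in pre-transformed cells and 38.3 and 40.2 in controls. In the fit of every kept probe set it was not called in tumours against pre-transformed cells (-0.49, adjusted p = 0.142). The last one was not kept.

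Mnt, the broadly expressed antagonist of Myc, read 119.2, 142.6, 205.3 and 150.7 in tumours, 192.3, 250.6 and 303.7 in pre-transformed cells and 244.0 and 264.1 in controls. It fell 1.62-fold against pre-transformed cells (log2 change -0.69 ± 0.22, adjusted p = 0.0234), with tumour 3 overlapping pre-transformed 1, and 1.68-fold against controls (-0.75, adjusted p = 0.0346). Without tumour 1, pre-transformed 2 or pre-transformed 3, the first call was lost (adjusted p = 0.0509, 0.0692 and 0.111). The second was lost without tumour 1, tumour 4, control 1 or control 2 (adjusted p = 0.0629, 0.0530, 0.128 and 0.173).

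Mlx, the second hub, read 103.9, 214.5, 175.9 and 169.9 in tumours, 218.6, 280.4 and 259.1 in pre-transformed cells and 202.2 and 218.1 in controls on 1418437_a_at. Every tumour was under every pre-transformed array (log2 change -0.65 ± 0.24, adjusted p = 0.0411), but not under every control (-0.39, adjusted p = 0.261). The call was lost without tumour 1 or 4 (adjusted p = 0.0542 and 0.0567) and without pre-transformed 1, 2 or 3 (0.0562, 0.131 and 0.110). Its other probe set, 1425930_a_at, read 127.6, 200.6, 98.3 and 112.3 in tumours, 137.2, 159.3 and 164.8 in pre-transformed cells and 176.7 and 190.1 in controls. There tumour 2 was the highest array. In the fit of every kept probe set neither passed in tumours against pre-transformed cells, with log2 changes of -0.65 on 1418437_a_at (adjusted p = 0.0507) and -0.24 on 1425930_a_at (adjusted p = 0.438).

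Mxd4, an Mxd protein associated with cells that leave the cycle, read 646.4, 243.0, 1133.2 and 742.1 in tumours, 969.9, 1456.8 and 1221.1 in pre-transformed cells and 857.1 and 850.8 in controls on its brightest probe set (1434378_a_at). Tumour 2 was low and tumour 3 lay within the range of pre-transformed cells, and no call was made (log2 change -0.99 ± 0.42, adjusted p = 0.0674). A second probe set, 1434379_at, read 197.9, 76.5, 364.5 and 281.3 in tumours, 444.1, 537.9 and 559.4 in pre-transformed cells and 358.6 and 397.3 in controls. Another, 1422574_at, read 48.4, 15.8, 106.3 and 76.0 in tumours, 230.7, 304.2 and 247.2 in pre-transformed cells and 186.7 and 167.7 in controls. All 3 thus put the tumours in the order 2, 1, 4, 3 from low to high, with pre-transformed cells highest on average and controls between. In the fit of every kept probe set, which called 49.8% of them, 1434379_at was 2.58-fold (adjusted p = 0.0275) and 1422574_at 5.19-fold lower in tumours than in pre-transformed cells (adjusted p = 0.00515). The fourth, 1422575_at, was dim in every group and went the other way (13.6 to 25.7 in tumours, 4.2 to 8.8 in pre-transformed cells and 5.3 to 6.4 in controls). The brightest probe set was called lower in 3 of 19 alternatives: without tumour 3 (-1.30, adjusted p = 0.0174), with quantile normalization (-1.13, adjusted p = 0.0341) and with median centring (-1.25, adjusted p = 0.00888). Tumour 2, lowest in Mxd4, was also lowest in the summed myeloid and B cell markers; their part in the level of Mxd4 was not tested.

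The genes most like Mxd4 over the 9 arrays were H2-K1, 2210016F16Rik, Dcun1d1, Dennd2d and Vps11, with mean absolute differences of 0.18 to 0.22 on the log2 scale. H2-K1, which encodes a class I major histocompatibility chain, read 710.1, 150.4, 996.8 and 664.3 in tumours, 774.2, 1148.8 and 809.7 in pre-transformed cells and 744.6 and 735.3 in controls. Tumour 2 was the lowest there too. The genes most like Myc were Fbln1, Sgip1, Cela1, Ube2cbp and Sh3rf3, with differences of 0.31 to 0.40. All 5 were bright in the tumours and dim on sorted arrays, as for Fbln1 (fibulin 1) with 141.4, 212.3, 251.8 and 201.0 in tumours, 16.2, 18.3 and 11.5 in pre-transformed cells and 9.7 and 8.6 in controls.

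Mxd3, unlike other Mxd genes a gene of dividing cells, was lowest in pre-transformed cells. On 1438847_at it read 89.8, 114.3 and 107.5 in pre-transformed cells, against 143.5 and 190.8 in controls (log2 change -0.68 ± 0.18, adjusted p = 0.104). On 1448878_at it read 58.8, 85.7 and 93.3 in pre-transformed cells, against 163.8 and 238.3 in controls. On 1422970_at it read 43.6, 48.6 and 63.1 in pre-transformed cells, against 88.2 and 120.2 in controls. No array of either group overlapped on any of the 3 probe sets, as was so for 36.3% of all tested genes, and none passed over every kept probe set (adjusted p = 0.130, 0.0566 and 0.0928, where 0.833% were called). Means were 2.54-fold lower in pre-transformed cells on 1448878_at and 2.01-fold lower on 1422970_at. Tumours read 114.9, 137.1, 91.0 and 156.9 on 1438847_at, and did not pass against pre-transformed cells (0.25, adjusted p = 0.377) or controls (-0.43, adjusted p = 0.187).

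Mxi1, also named Mxd2, had probe sets that disagreed. On 1450376_at it read 256.2, 244.7, 460.2 and 249.8 in tumours, 341.3, 312.0 and 388.5 in pre-transformed cells and 355.4 and 451.0 in controls, with no call (adjusted p = 0.39 and 0.18). Tumours 1, 2 and 4 lay below every sorted array and tumour 3 above. Without tumour 3, Mxi1 was called lower against pre-transformed cells (log2 change -0.47, adjusted p = 0.0242) and against controls (-0.68, adjusted p = 0.00923). On 1425732_a_at it read 64.1, 60.7, 54.7 and 35.0 in tumours, 28.3, 29.7 and 30.6 in pre-transformed cells and 33.3 and 34.7 in controls. There it was at least 1.19-fold higher than in pre-transformed cells (adjusted p = 0.0294 over every kept probe set), whose signal was dim.

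**Figure D2:**
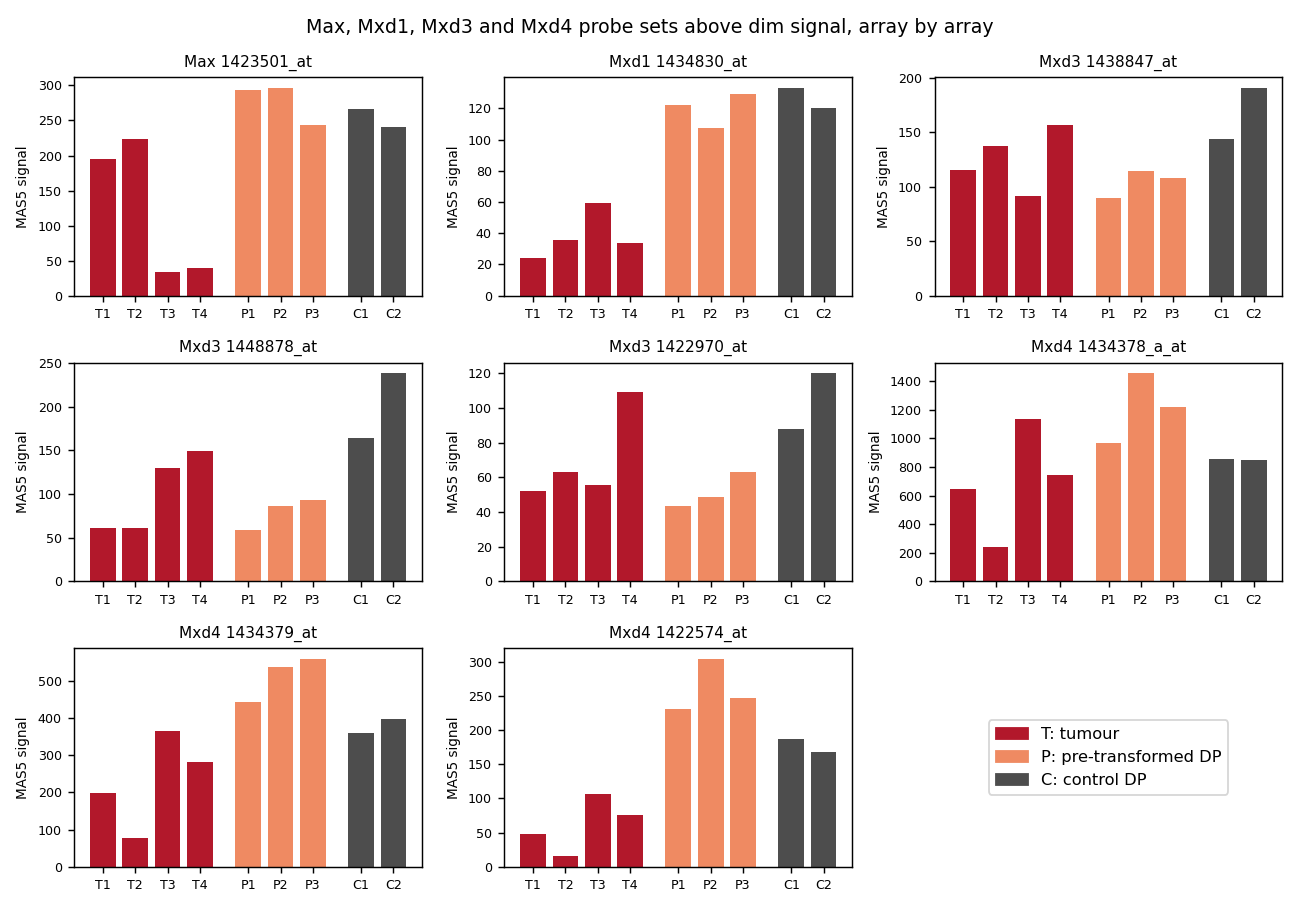
Signal of each probe set of Max, Mxd1, Mxd3 and Mxd4 that was not dim in every group, 1 bar per array (T tumour, P pre-transformed, C control; linear axes from 0, one scale per panel). Max is low in tumours 3 and 4, the 3 Mxd4 panels are lowest in tumour 2, and the 3 Mxd3 panels are lower in all pre-transformed arrays than in both controls.

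**Figure D3:**
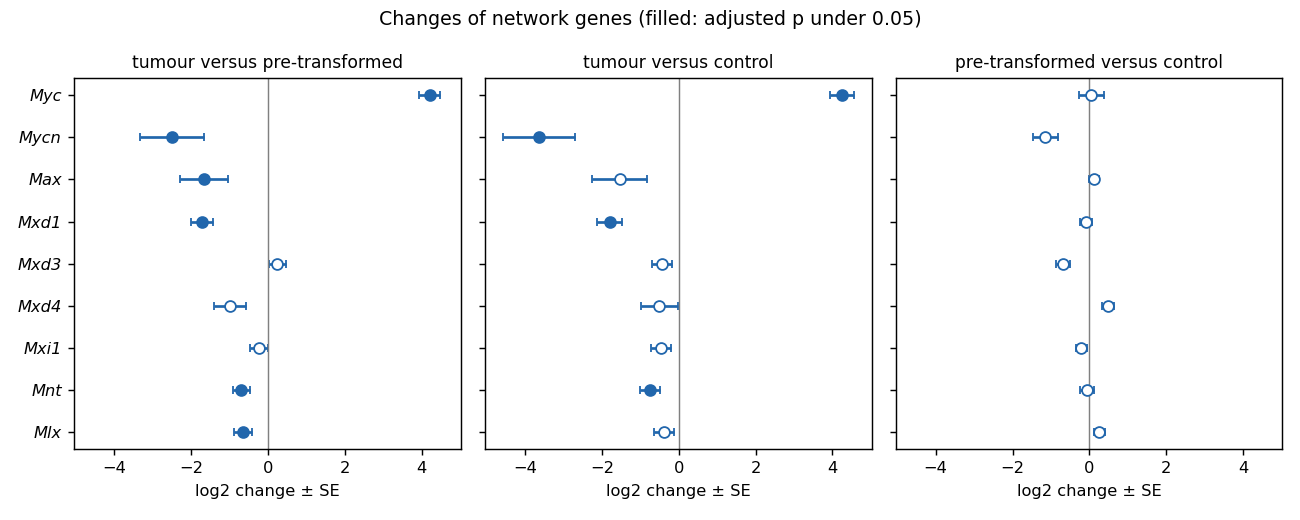
Log2 change with its standard error of the 9 tested genes in tumours against pre-transformed cells, tumours against controls and pre-transformed cells against controls, on one axis; filled points passed an adjusted p of 0.05. Myc stands alone on the right in both tumour panels (4.21 and 4.26), and no point is filled for pre-transformed cells against controls.

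The E-box CACGTG, the site that Myc and Mxd dimers with Max share, was searched for in RefSeq promoter windows (GRCm38.p6, 250 bases before to 50 after a gene's start), which all members but Myc had (9 genes, 11 windows). It was present in 1 window each of Max, Mnt, Mlx and Mxd4, 4 of the 11 member windows, and in 7.15% of all 32851 windows. The sequences run from 250 bases before the start through the first 10 bases of the transcript, 5′ to 3′ on the strand of the gene, with the E-box in capitals. They are shown because these 4 genes encode partners or competitors of Myc at this very motif.
Max, chr12:76962239-76962498, minus strand: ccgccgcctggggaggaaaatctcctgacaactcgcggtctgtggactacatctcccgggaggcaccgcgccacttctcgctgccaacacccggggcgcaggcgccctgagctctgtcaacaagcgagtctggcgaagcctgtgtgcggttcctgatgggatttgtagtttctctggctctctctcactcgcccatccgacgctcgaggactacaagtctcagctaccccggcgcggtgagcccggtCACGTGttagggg
Mnt, chr11:74830674-74830933, plus strand: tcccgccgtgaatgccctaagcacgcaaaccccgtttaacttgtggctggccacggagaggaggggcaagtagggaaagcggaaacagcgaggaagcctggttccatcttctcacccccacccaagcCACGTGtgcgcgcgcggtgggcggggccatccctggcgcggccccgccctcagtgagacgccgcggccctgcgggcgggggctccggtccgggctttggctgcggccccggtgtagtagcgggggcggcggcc
Mlx, chr11:101087040-101087299, plus strand: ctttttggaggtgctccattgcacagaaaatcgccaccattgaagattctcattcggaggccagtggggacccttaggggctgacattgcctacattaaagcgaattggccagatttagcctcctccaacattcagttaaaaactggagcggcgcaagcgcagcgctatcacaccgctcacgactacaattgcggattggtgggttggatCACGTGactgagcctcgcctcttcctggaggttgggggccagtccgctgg
Mxd4, chr5:34187701-34187960, minus strand: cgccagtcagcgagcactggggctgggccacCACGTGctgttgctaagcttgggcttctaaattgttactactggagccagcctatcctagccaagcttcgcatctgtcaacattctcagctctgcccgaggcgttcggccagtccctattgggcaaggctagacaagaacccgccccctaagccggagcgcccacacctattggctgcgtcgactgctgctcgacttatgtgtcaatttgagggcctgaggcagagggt
The first base of the E-box lay 3 bases before the start in Max, 40 in Mlx, 123 in Mnt and 219 in Mxd4. Max, Mnt and Mlx were called lower in tumours against pre-transformed cells in the fit of genes, and Mxd4 was not. In the fit of every kept probe set, Mnt (adjusted p = 0.0303) and 2 of the 4 probe sets of Mxd4 were called lower, and Max (0.0531) and Mlx (0.0507 and 0.438) were not. Mxd1 had no E-box in its window. The TCF/LEF words CTTTGAT (3.73% of windows) and CTTTGTT (5.85%) were found in none of the 11 windows on either strand. The E2F words TTGGCGC (2.45%) and TTCCCGC (4.6%) were found in that of Mycn and that of Mxd3. A match describes the letters of a window and is not evidence of binding.

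Of the further partners, Mlxip (MondoA), which pairs with Mlx, read 131.9, 102.1, 173.1 and 195.0 in tumours, 212.8, 221.0 and 232.1 in pre-transformed cells and 210.7 and 177.9 in controls. It was called lower against pre-transformed cells (log2 change -0.60 ± 0.23, adjusted p = 0.0439), a call lost without tumour 1 or 2 or any pre-transformed array (adjusted p = 0.0721 to 0.123). Mga, a large Max partner with a T-box domain, read 149.9, 249.6, 281.0 and 358.4 in tumours, 308.7, 358.2 and 370.2 in pre-transformed cells and 258.7 and 239.6 in controls, and did not pass (-0.48, adjusted p = 0.144). Mga was called lower in 4 of 19 alternatives. These were the mean of its probe sets (-1.04, adjusted p = 0.00988), median centring (0.0427), the replicate block (0.0341) and tumour 4 left out (0.0429). Mlxipl, which also pairs with Mlx, was too dim to test.

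Of 13 tested genes of coactivators that Myc recruits, 5 rose and 4 fell in tumours against pre-transformed cells, where 23.9% of all tested genes were higher and 31% lower, with a median log2 change of -0.01. The AAA+ ATPases Ruvbl2 (1.91, adjusted p = 1.73e-05) and Ruvbl1 (1.57, adjusted p = 5.37e-05) and the actin-related Actl6a (1.65, adjusted p = 8.5e-05) rose. Ruvbl2 read 881.9 to 1227 in tumours and 256.3 to 316.9 in pre-transformed cells. Ep400, the scaffold of the complex those proteins share, fell by 1.42 (adjusted p = 0.000129), with 302.8 to 497.9 in tumours and 999.9 to 1124.8 in pre-transformed cells. It was called in all 19 alternatives, with changes of -1.68 to -0.76. Zbtb17 (Miz-1), through which Myc represses genes, fell by 1.33 (adjusted p = 0.00127), and the elongation kinase gene Cdk9 by 0.57 (adjusted p = 0.0225; 0.0705 and 0.0655 without pre-transformed 1 or 3). Subunits linked to one complex thus changed in opposite directions. None of the 13 was called between pre-transformed cells and controls (1 was higher at an unadjusted p under 0.05).

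Of 11 tested genes of the corepressor complex of Mxd and Mnt, 4 rose and 4 fell in tumours against pre-transformed cells (23.9% and 31% of all genes), with a median log2 change of 0.04. The histone-binding Rbbp7 (1.79, adjusted p = 1.89e-05) and Rbbp4 (0.64, adjusted p = 0.00156) and the deacetylase gene Hdac2 (0.71, adjusted p = 0.00138) rose. With quantile normalization Rbbp4 was no longer called (adjusted p = 0.201), nor was Hdac2 with median centring (0.46, adjusted p = 0.0640) or with the mean of its probe sets (0.31, adjusted p = 0.181). Sin3b, a scaffold that Mxd proteins bind, fell by 1.42 (adjusted p = 0.000293), with 667.8, 536.0, 606.8 and 994.9 in tumours, 1969.8, 1556.2 and 1997.2 in pre-transformed cells and 1922.4 and 2189.1 in controls. It was called in all 19 alternatives, with changes of -1.68 to -0.61. Arid4a (-1.24, adjusted p = 0.000953) and Suds3 (-1.01, adjusted p = 0.00201), both of the Sin3 complex, were also lower. Over the mean of its probe sets Suds3 lost its call (-0.25, adjusted p = 0.282). Sin3a, the other Sin3 gene of the list, was not called (0.04, adjusted p = 0.856). It read 251.7 to 366.5 in tumours and 268.8 to 302.4 in pre-transformed cells.

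Sap30 was the one corepressor gene called before transformation. It encodes a Sin3 subunit and read 310.9, 260.5 and 252.6 in pre-transformed cells, against 431.9 and 436.5 in controls (log2 change -0.67 ± 0.12, adjusted p = 0.0421). The call was lost without control 1 (adjusted p = 0.187), control 2 (0.329) or pre-transformed 3 (0.142). It was made in 8 of 17 alternatives, and was also lost with no filter (0.0734), every probe set (0.0674), the replicate block (0.0968), the common floor (0.179), no trend (0.190) and all 9 arrays in the fit (0.972).

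Genes that act on the Myc protein, whose level was not measured, changed in 11 of 14 cases in tumours against pre-transformed cells, 4 higher and 7 lower, where 54.9% of all genes were called (23.9% higher and 31% lower). Cip2a, an inhibitor of the phosphatase PP2A that protects Myc from breakdown, rose by 2.66 as log2 (adjusted p = 4.83e-05). Aurka, a mitotic kinase gene, rose by 2.28 (adjusted p = 0.000111) and the ubiquitin ligase gene Skp2 by 2.01 (adjusted p = 0.000649). Aurka and Skp2 also follow the cell cycle. Gsk3b, the kinase that marks Myc for breakdown, read 258.8, 287.7, 274.9 and 274.3 in tumours, 1097.0, 1054.4 and 1020.2 in pre-transformed cells and 991.3 and 1000.6 in controls. It was 3.86-fold lower in tumours than in pre-transformed cells (log2 change -1.95 ± 0.11, adjusted p = 5.83e-06), with the 4 tumours close together. The ubiquitin ligase subunit genes Fbxo32 (-1.71, adjusted p = 0.000111) and Fbxw7 (-1.49, adjusted p = 0.00168) were lower as well.

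Fbxw7, which encodes the subunit that recognises the mark set by Gsk3, was called in both steps. It read 119.1, 194.9, 321.3 and 253.4 in tumours, 537.0, 594.8 and 624.5 in pre-transformed cells and 359.6 and 359.4 in controls. It was thus higher in all pre-transformed arrays than in controls (log2 change 0.70 ± 0.11, 1.63-fold, adjusted p = 0.0267), and lower in all tumours than in either sorted group. Against controls the tumours did not pass (-0.79, adjusted p = 0.0706). The rise in pre-transformed cells was not called without control 1, control 2 or pre-transformed 3 (adjusted p = 0.146, 0.215 and 0.100). It was called in 8 of 17 alternatives, and was also lost without _s_at or _x_at probe sets (0.52, adjusted p = 0.0754), with the replicate block (0.0558), median centring (0.0759), the common floor (0.110), no trend (0.153) and all 9 arrays in the fit.

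Known targets of Myc were higher in tumours almost without exception. This list was drawn up with earlier results of these data known, so its direction is not independent evidence. Of 36 tested, 35 were called higher against pre-transformed cells and none lower, where 23.9% of all tested genes were higher and 31% lower. The median log2 change of the 36 was 2.06, and Prdx3 did not pass. The nucleolar GTPase gene Gnl3 read 1982.8, 2252.0, 2168.9 and 1675.5 in tumours, 324.3, 294.8 and 311.4 in pre-transformed cells and 280.6 and 274.4 in controls (2.70 ± 0.13 against pre-transformed cells, adjusted p = 5.04e-06). Ran, the nuclear transport GTPase (2.09, adjusted p = 5.04e-06), and the DNA repair enzyme gene Apex1 (3.15, adjusted p = 5.34e-06) also rose. By array, the median of the list stood 2.08, 2.19, 1.77 and 1.74 above the pre-transformed mean in tumours 1 to 4 on the log2 scale. Tumours 3 and 4, low in Max, were the lower pair, and their difference from the other tumours was not tested.

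Before transformation none of the 36 was called by limma (1.63% of all tested genes were). The median log2 change of the 36 between pre-transformed and control cells was -0.28, against 0.02 for all tested genes. At an unadjusted p under 0.05, 12 of 36 were lower, and the share of all genes at that threshold was not counted. The medians of the controls stood 0.18 and 0.34 above the pre-transformed mean. For a list of proliferation genes the medians of the controls stood 0.43 and 0.82 above that mean. Of 17 proliferation genes 3, Birc5, Ccna2 and Bub1, were called lower in pre-transformed cells, as were 0.524% of all tested genes. Birc5, which encodes survivin, read 298.8, 374.4 and 362.5 in pre-transformed cells, against 649.9 and 802.4 in controls (log2 change -1.07, adjusted p = 0.0167). Without control 2 or pre-transformed 3 none of the 17 was called, without control 1 there was 1, and without pre-transformed 2 there were 8. In tumours 16 of the 17 were called higher than in pre-transformed cells, as were 23.9% of all tested genes (Mki67, which encodes Ki-67, by 1.94, adjusted p = 1.09e-05). The part of the share of dividing cells in these values of Myc targets was not tested.

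Of 12 tested genes described as repressed by Myc, 6 were lower and 2 higher in tumours than in pre-transformed cells, against 31% and 23.9% of all genes, with a median log2 change of -1.18. The growth arrest gene Gadd45a read 45.8, 35.3, 34.6 and 41.5 in tumours, 340.3, 196.1 and 204.1 in pre-transformed cells and 345.3 and 287.0 in controls, 6.12-fold lower in tumours than in pre-transformed cells (adjusted p = 2.56e-05). Hbp1, a repressor of cell cycle entry (-2.32, adjusted p = 2.94e-05), and Cdkn1b, which encodes p27 (-2.15, adjusted p = 0.000132), were lower as well. Hbp1 was called in all 19 alternatives, with changes of -2.57 to -0.62. Gadd45g read 511.1, 453.9, 449.9 and 207.2 in tumours, 56.1, 41.8 and 24.5 in pre-transformed cells and 79.3 and 49.4 in controls, at least 8.77-fold higher in tumours than in pre-transformed cells (adjusted p = 8.29e-05). Cdkn1a, which encodes p21, read 99.6, 294.2, 169.6 and 23.4 in tumours, 14.0, 22.2 and 12.6 in pre-transformed cells and 22.9 and 18.7 in controls, at least 2.38-fold higher in tumours than in pre-transformed cells (adjusted p = 0.00855). With a common floor of 40 under all signals Cdkn1a was not called (1.57, adjusted p = 0.0822). Tumour 4, the lowest in both, lay barely above the sorted arrays for Cdkn1a. The cell cycle inhibitor genes Cdkn1a and Cdkn1b thus changed in opposite directions.

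**Figure D4:**
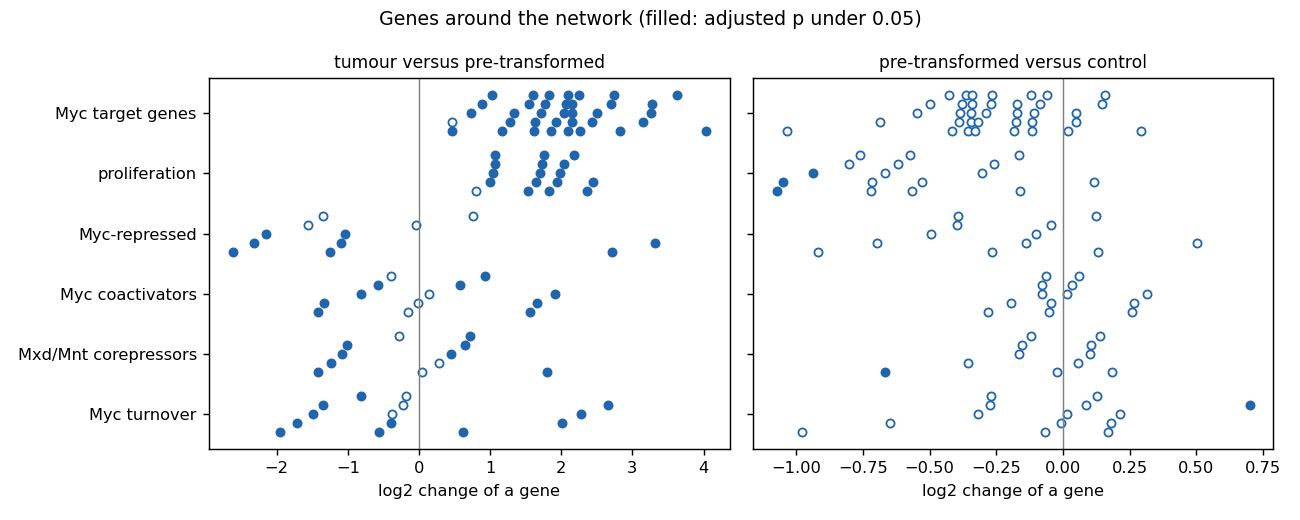
Log2 change of each tested gene of 6 lists in tumours against pre-transformed cells (left) and in pre-transformed cells against controls (right; the horizontal axes differ), filled where the adjusted p was under 0.05. All Myc targets and proliferation genes lie right of 0 at the left and most lie left of 0 at the right, while coactivators, corepressors and turnover genes spread to both sides.

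The chromosomal neighbours of Myc were set beside it, the nearest 5 on either side in RefSeq order that had a probe set of their own. Of these 10 genes 7 were tested and 6 were dim in every group. Nsmce2, the fifth gene before Myc and a SUMO ligase of DNA repair, rose 3.06-fold (674.1, 476.5, 527.5 and 642.0 in tumours, 177.2, 202.9 and 184.6 in pre-transformed cells and 194.6 and 251.9 in controls, with adjusted p = 5.77e-05 against pre-transformed cells). Lratd2, the second before it, read 29.3, 9.8, 14.4 and 9.6 in tumours, 69.5, 26.6 and 34.4 in pre-transformed cells and 59.2 and 43.6 in controls. It was called lower in tumours against pre-transformed cells (log2 change -1.50, adjusted p = 0.0214), both dim, and was at least 1.42-fold lower than in controls (adjusted p = 0.0181). Cyrib, the fifth after Myc, rose 1.30-fold (adjusted p = 0.0307) and Trib1, the fourth before Myc, at least 1.36-fold (adjusted p = 0.0182). Pvt1, the noncoding RNA gene next to Myc, was dim in every group but uneven, at 45.8, 0.6, 14.7 and 54.6 in tumours, 0.4, 1.0 and 0.6 in pre-transformed cells and 0.2 and 0.8 in controls. The fit called it higher against pre-transformed cells (adjusted p = 0.0383), but no fold is given between dim signals. It was low in tumour 2, where Myc read 1486.1. The rise of Myc was thus larger than that of any neighbour above dim signal by its tumour mean. Pvt1, dim by that mean, had a fitted change as large as that of Myc (4.21), and the 2 were not ranked.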

How the data were processed

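RNA of 9 mice (4 tumour, 3 pre-transformed and 2 control samples) was read on 1 array each. The deposited table holds linear MAS5 signal intensity values for the probe sets, per the submitters' processing notes, with a version not given in the sources used here. A check of the values showed a mean of 100 on each array once the lowest and highest 2% of probe sets were dropped, and 218 values of 0. No calls of presence were used. The number of arrays limits the precision.

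Log2 of the signal was used, with 0 set to 0.1 and without further normalization. Of 45101 probe sets 64 controls were dropped. The filter kept 26421 that reached their array's median on 2 or more arrays, 18 of the 24 of the network among them. Gene names came from the platform annotation, in which 34945 probe sets had 1 gene, 932 several and 9160 none. The kept probe set with the highest mean log2 signal stood for its gene, and no levels were compared between probe sets. Means over arrays are geometric.

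The test was limma 3.58.1 (R 4.3.3; lmFit and eBayes, trend included), with p adjusted by Benjamini-Hochberg over all 11644 genes and calls at 0.05. Sorted arrays alone served pre-transformed against control, and all 9 arrays served the tumour comparisons. A further fit took every kept probe set. A fold against a dim group is "at least" the brighter mean over the dim limit, and none is given where both are dim. The method was tested on simulated data. Plots used matplotlib 3.10.9 (Python 3.11.15).

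Groups follow the labels, which name different mice. Deviations of same-numbered arrays from their group means correlated at -0.02 to 0.08, so that no pairing was used. Named genes were all members, up to 3 of each list per direction with the smallest p in tumours against pre-transformed cells and up to 2 called in pre-transformed cells against controls, all further partners, and the 5 genes most like Myc and Mxd4. Bub1 and the genes like Max were chosen after their values were seen. The members and all lists were chosen with earlier results of these data known. Alternatives were an absent or a stricter filter, median centring, quantile normalization, an offset of 16, a common floor of 40, all probe sets or their mean per gene, no _s_at or _x_at probe sets, no trend, other arrays in the fit, a replicate block and each array left out.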

Additional observations from a re-analysis of the deposited data

Results flagged for a closer look

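In the tumour group, 41 named genes (9 of them network genes) were examined for an array that lay far from the other tumours by Dixon's test, and 3 had one, where chance alone gives about 1 in 20. Mxi1 read 460.2 in tumour 3, against 244.7 to 256.2 in the other tumours. Actl6a read 676.8 in tumour 3, against 981.2 to 1019.1 in the others. Gadd45g read 207.2 in tumour 4, against 449.9 to 511.1 in the others.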

How the results depend on the processing

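Over the alternatives, 416 of 480 changes of network genes kept their direction and their side of the threshold, 45 kept the direction and lost the call, 8 gained one and 11 turned. Myc and Mxd1 were called in both tumour comparisons in all 19 and all 18 alternatives (adjusted p at most 0.000193 and 0.000974 for Myc, and 0.00532 and 0.028 for Mxd1). Against pre-transformed cells Mnt was called in 15 of 19, Max in 9 and Mlx in 7, with adjusted p of 0.0061 to 0.111, 0.00879 to 0.113 and 0.0141 to 0.131. Of 9 members, 6 were called there, but 3 with a common floor of 40 and 3 with only tumour and pre-transformed arrays in the fit. Leaving out 1 array gave 2 to 7: 3 without tumour 1, tumour 4 or pre-transformed 1, and 2 without pre-transformed 2 or 3. Against controls, 4 were called, but 2 with the common floor and 2 to 5 with 1 array left out (2 without control 1 or 2). Between pre-transformed and control cells 0 were called in every alternative. With the replicate number as a block, 5, 4 and 0 were called in these comparisons. Same-numbered arrays share only a number.

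The turned changes, none of them called, were in pre-transformed against control cells Myc with quantile normalization (-0.0332), with median centring (-0.0813), without control 2 (-0.233) and without pre-transformed 1 (-0.266), within a range of -0.266 to 0.334 with 1 array left out. Mnt turned there without control 2 (0.00358) or pre-transformed 1 (0.12), within -0.21 to 0.12, Max with median centring (-0.00322) and Mxd1 with the mean of its probe sets (0.0144). In tumours against pre-transformed cells Mxd3 turned with median centring (-0.0112), and Mxi1 with the mean of its probe sets (0.288, and 0.0808 against controls). The cause was not tested. Mycn has no value at the common floor, under which all its arrays lay. Of all genes tested, 2785 were called higher and 3607 lower in tumours against pre-transformed cells, and 1877 and 4279 with median centring, which moved the median change of all genes to -0.38. Against controls these were 2387 and 2936, and 1253 and 4132 with centring (median -0.46), and in pre-transformed against control cells 129 and 61, and 77 and 113 (median -0.11). These 129 and 61 became 57 and 17 with no filter, 85 and 25 with every probe set, 80 and 68 with the replicate block, 8 and 6 with the common floor, 6 and 0 with all 9 arrays in the fit and 1 and 0 with no trend. They became 30 and 3 without control 1, 18 and 0 without control 2, 81 and 48 without pre-transformed 1, 159 and 132 without pre-transformed 2 and 19 and 0 without pre-transformed 3. Signals under the dim limits allow no fold, and background was higher on tumour arrays. Over the alternatives 32 to 36 Myc targets were called higher in tumours against pre-transformed cells and 0 lower.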
